A study of Mus musculus with 6 samples.

Results

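The proteasome genes measured here are those whose annotated symbol begins with Psma, Psmb, Psmc, Psmd, Psme, Psmf or Psmg. On the arrays 67 probes carried such a symbol, for 45 genes out of 16110 named genes. A probe was kept when it lay above the 40th percentile of its array on at least 3 of the 6 arrays, and each gene was represented by its brightest kept probe. This left 61 probes and 43 of the 45 genes, among 10304 kept genes in all. The arrays compared TRAF3KO cells, which are premalignant splenic B cells of the genotype TRAF3-/-, with Control cells, which are normal splenic B cells, with 3 arrays in each group. Both groups came from mouse spleen, and the labels give no treatment for either. Neither the strain and age of the mice nor the way Traf3 was deleted is stated in the labels, and Traf3 itself was not analysed here. No label says that each array held a separate mouse, so the p-values below reflect only the scatter of these samples, some of which may be technical.

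The proteasome degrades proteins that carry ubiquitin chains. Its 20S core is a barrel of outer alpha rings, which gate entry, and inner beta rings, which hold the catalytic sites. The 19S regulatory particle binds the ubiquitin chain, removes it, and unfolds the substrate with a ring of ATPases. In lymphoid cells and under interferon gamma the catalytic subunits Psmb5, Psmb6 and Psmb7 are replaced by Psmb8, Psmb9 and Psmb10, which makes the immunoproteasome, and the PA28 activator of Psme1 and Psme2 caps the core. TRAF3 is an adaptor that directs the kinase NIK to proteasomal degradation. The proteasome also degrades the inhibitor IkB alpha and processes the NF-kB precursor p100, so it acts at several steps of the pathway that TRAF3 restrains. The design asks which genes differ in B cells without TRAF3, and here the question is whether constitutive and immunoproteasome genes differed, alike or not.

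Values are log2 intensities as the authors deposited them, with 31.3% to 31.4% of the 25697 probes of each array at the floor of 0. The pan-B markers Cd79a and Cd79b averaged 15.98 and 16.06 in TRAF3KO cells and 15.99 and 16.07 in Control cells, close to the highest value of every array, so these probes can hardly show a difference in B cell content. Over the 12 monocyte and macrophage markers with a probe, of 15 listed, the summed linear intensity was 1298 to 2289 in TRAF3KO samples and 2009 to 6226 in Control samples. Control replicate 2 had the 2009, against 4825 and 6226 on the other Control arrays. Of the 9 kept markers 1 had a difference above 0, and the median was -1.72. At an unadjusted limma p under 0.05, 6 were lower and 0 higher. Lyz2 (-1.61) and the dim C1qc (-5.08) were called lower (limma adjusted p = 0.041 and 0.047). Over 12 of 13 T cell markers it was 5252 to 6503 in TRAF3KO samples and 7790 to 8528 in Control samples, and Cd8a and Lat were at 0 on all arrays. Most of that sum was Cd2, which mouse B cells also express. Cd2 averaged 12.40 in TRAF3KO cells and 12.92 in Control cells (limma adjusted p = 0.0059). Of the 8 kept T cell markers 5 had a difference above 0, and the median of the 8 was 0.04. At an unadjusted limma p under 0.05, 3 of the 8 were lower and 0 higher, against 8.55% and 8.35% of all kept genes. They were Cd2, Cd3d (-3.41) and Thy1 (-3.12), the last 2 dim and at 0 on TRAF3KO replicate 3. Over 10 of 12 B cell markers the summed intensity was 240092 to 251709 in TRAF3KO samples and 258068 to 262034 in Control samples. That sum includes Cd79a and Cd79b. Of the 10 markers 5 had a difference above 0, with a median of 0.01. Fcrla was called lower (-0.32, limma adjusted p = 0.011) and Cr2 higher (0.92, limma adjusted p = 0.019). Over 9 of 9 plasma cell markers it was 68746 to 75492 in TRAF3KO samples and 61773 to 64283 in Control samples. Mzb1 and Xbp1 carried that sum, whereas Sdc1 fell by 2.22 and Fkbp11 fell by 1.05 (limma adjusted p = 2.4e-04 and 0.017). Over 7 of 10 erythroid markers the sum was 63073 to 77773 in TRAF3KO samples and 77009 to 80565 in Control samples, mostly Hba-a1. Hba-a1 averaged 16.05 in TRAF3KO cells and 16.12 in Control cells, also close to the highest value of every array. The sum of 63073 was that of TRAF3KO replicate 1, against 76587 and 77773 on the other TRAF3KO arrays. Of the 6 kept erythroid markers, 0 had a difference above 0, against 50.7% of all kept genes. Car2 was called lower (-1.03, limma adjusted p = 0.033). In TRAF3KO and Control samples, NK cell sums were 2758 to 3336 and 2520 to 3954, and neutrophil sums 152 to 202 and 237 to 385. Dendritic cell sums were 225 to 362 and 163 to 258. Zbtb46 was at 6.35 to 7.02 in TRAF3KO samples and at 0 in all Control samples, so it passed the filter through TRAF3KO arrays alone. The other kept dendritic cell markers, Flt3, Xcr1 and Siglech, differed by 0.64, 0.02 and 0.01 and were not called. Itgax was at 0 on all arrays. The part of these cells in the proteasome values below was not tested. In bulk samples, fewer cells of a type and less RNA per cell cannot be told apart. Control replicate 2 lay apart on the second principal component, which held 20.6% of the variance, at -90.7 against -17.8 to 43.3 on the other arrays. By Xist and Eif2s3y, 1 of 3 TRAF3KO samples and 2 of 3 Control samples were male. The males lay at 30.9 to 43.3 on that component and the females below 0, and Control replicate 2 was the only female Control.

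None of the 43 kept proteasome genes was called higher or lower in TRAF3KO cells by limma at an adjusted p under 0.05 (0 of 43 in each direction), whereas 2.3% of all kept genes were called higher and 2.14% lower, 4.44% in all. At an unadjusted p under 0.05, 12 proteasome genes were higher and 1 was lower, against 8.35% and 8.55% of all kept genes. The differences were small and leaned one way. Of the 43 genes 33 (76.7%) had a difference above 0 (TRAF3KO minus Control), against 50.7% of all kept genes, and the median difference was 0.12 on the log2 scale, against 0.00 over all kept genes. In 38 of the 43 genes (88.4%) the difference lay between -0.3 and 0.3, against 60.9% of all kept genes. That comparison was not matched for probe brightness. The 3 TRAF3KO arrays all lay above the 3 Control arrays for 12 of the 43 genes, against 11% of all kept genes, and all below them for 1 gene, Psmd2, against 11.4%. Without Control replicate 2 those counts were 20 and 2 of 43, against 16.8% and 17.2% of all kept genes. The counts were not redone without any other array. Control replicate 2 was the highest array for 6 of the 43 genes, and Control replicates 1 and 3 for 3 and 1. Since no proteasome gene passed the test, the differences below are measured values and not calls.

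**Figure D1:**
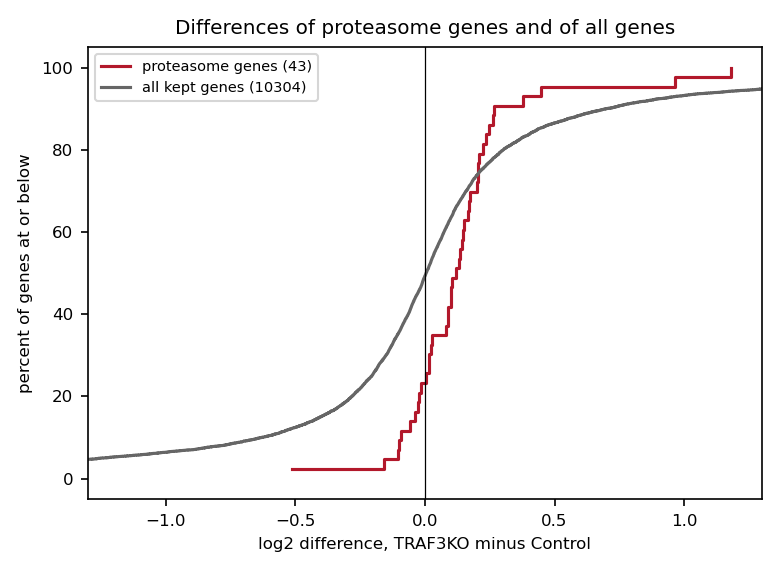
Cumulative share of genes (y axis, percent) at or below each log2 difference, TRAF3KO minus Control (x axis, drawn from -1.3 to 1.3), for the 43 kept proteasome genes and for all 10304 kept genes. The proteasome curve is steeper and lies to the right of 0, with 33 of its 43 genes above 0 and 38 between -0.3 and 0.3.

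**Figure D2:**
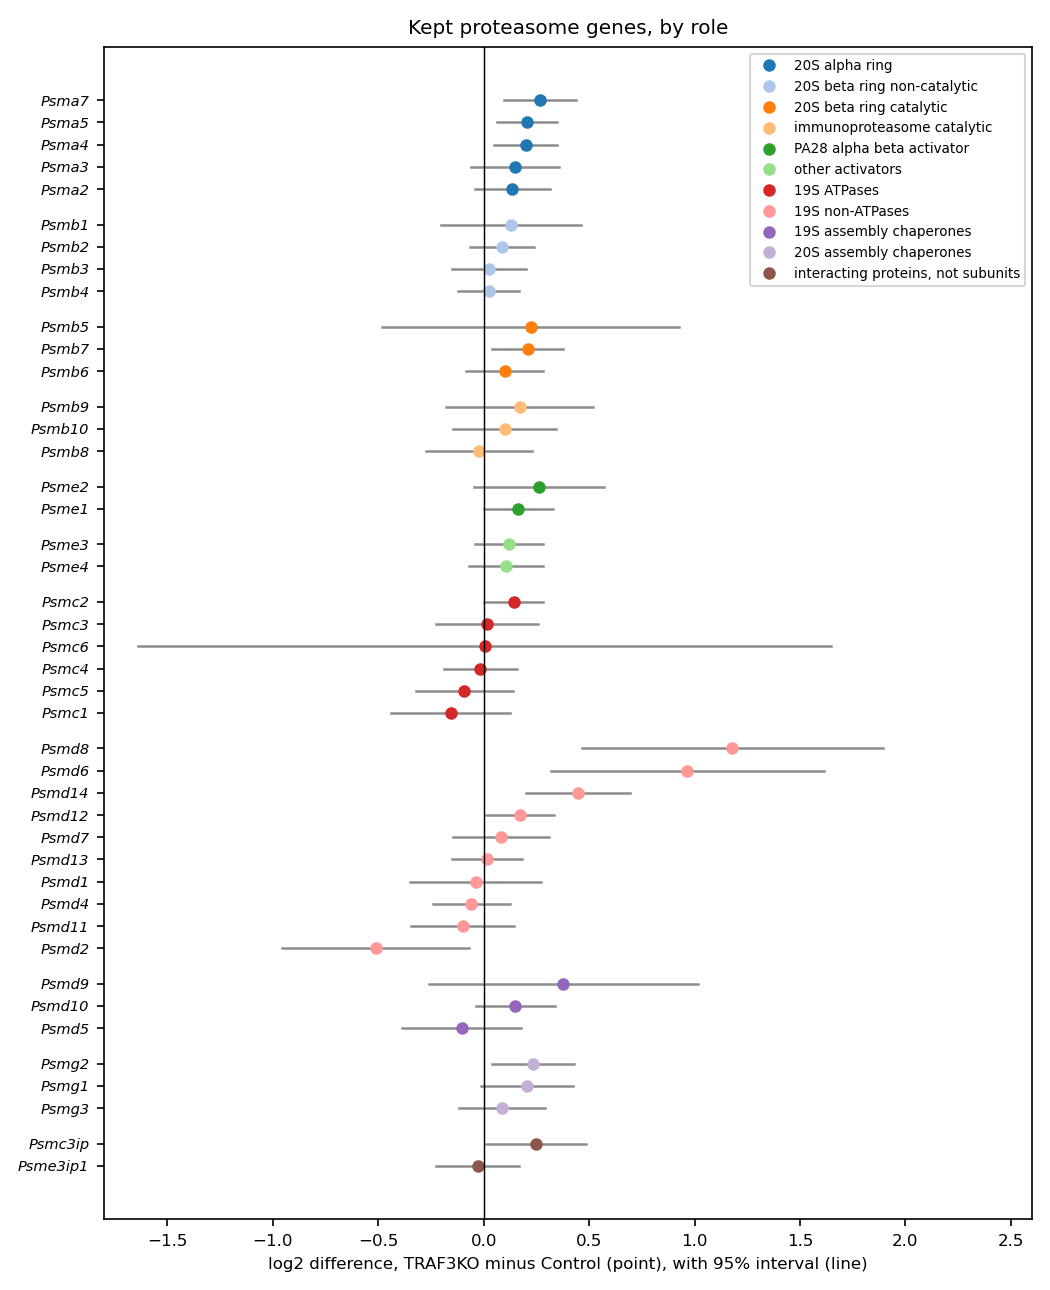
Fitted log2 difference of each kept proteasome gene, TRAF3KO minus Control (points), with its 95% interval from limma (lines), grouped and coloured by role. The points of the alpha ring, the constitutive beta ring and PA28 lie right of 0, the 19S ATPases lie on both sides, and the widest intervals belong to Psmc6, Psmd8, Psmb5, Psmd6 and Psmd9.

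All 5 kept subunits of the alpha ring had a difference above 0, from 0.14 for Psma2 to 0.27 for Psma7, with a median of 0.20, or 14.9% higher intensity. Psma7 measured 12.95, 13.03 and 12.85 in TRAF3KO cells, against 12.61, 12.80 and 12.63 in Control cells. The groups did not overlap for Psma7 on this probe, and its difference was 0.27 ± 0.08 (SE, limma adjusted p = 0.096). A second probe of Psma7, almost as bright, differed by 0.14 ± 0.08, and its groups overlapped. Psma5 averaged 13.85 ± 0.07 in TRAF3KO cells and 13.64 ± 0.05 in Control cells (SD, n = 3 each; limma adjusted p = 0.13). Psma4 averaged 13.89 ± 0.08 in TRAF3KO cells and 13.69 ± 0.07 in Control cells (limma adjusted p = 0.16). These 2 genes also did not overlap between groups, whereas Psma3 and Psma2 did, with differences of 0.15 ± 0.10 and 0.14 ± 0.08. TRAF3KO replicate 2 was the highest array for 5 of the 5 genes and Control replicate 1 the lowest for 4 of the 5. Over all kept genes these arrays were the highest for 1719 and the lowest for 1867 of 10304. The alpha ring median was 0.15 without TRAF3KO replicate 2 and 0.16 without Control replicate 1. Psma5, Psma4 and Psma7 were singled out after their values were seen. The remaining alpha genes, Psma1 and Psma6, were left out by the filter. The 1 probe of Psma1 was at 0 on all 6 arrays, and that of Psma6 was at 0 on 5 and at 3.95 on TRAF3KO replicate 3. Just inside the filter lay the ATPase Psmc6, at 4.99, 5.61 and 4.55 in TRAF3KO cells and 5.82, 3.49 and 5.84 in Control cells, where the 40th percentile was 3.95 to 3.97.

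The promoter of Psma7 is shown because this gene had the highest difference of the alpha ring. The sequence is from RefSeq (GRCm38.p6, chr2:180042415-180042714, minus strand), runs 5′ to 3′ from 250 bases before the gene start to 50 bases after it, and has a CCAAT box in capitals.
Psma7: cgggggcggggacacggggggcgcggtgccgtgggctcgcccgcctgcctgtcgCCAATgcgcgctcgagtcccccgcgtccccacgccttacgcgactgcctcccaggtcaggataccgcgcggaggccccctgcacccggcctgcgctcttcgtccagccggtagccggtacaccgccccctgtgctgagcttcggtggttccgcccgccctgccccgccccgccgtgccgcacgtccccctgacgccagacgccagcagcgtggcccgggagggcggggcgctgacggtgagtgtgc
CCAAT (either strand) was present in 3 of the 5 alpha ring promoters, those of Psma2, Psma3 and Psma7, and in 37.9% of 27025 promoters of the same length. Among 37 promoters of kept proteasome genes it was in 12 (32.4%), which is not above that share.

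The 7 constitutive beta subunits also all lay above 0, with a median of 0.10 and a narrow range. The non-catalytic Psmb1, Psmb2, Psmb3 and Psmb4 differed by 0.13 ± 0.15, 0.09 ± 0.07, 0.03 ± 0.08 and 0.02 ± 0.07 (SE), and their groups overlapped. Among the catalytic subunits, Psmb7, which carries the trypsin-like site, measured 12.97, 13.15 and 13.04 in TRAF3KO cells, against 12.85, 12.93 and 12.75 in Control cells. Its groups did not overlap, and its difference was 0.21 ± 0.08 (limma adjusted p = 0.195). Dimmer probes of Psmb7 differed by 0.08 ± 0.08 and 0.20 ± 0.17, with overlap. Psmb6, with the caspase-like site, measured 13.15, 13.24 and 13.24 in TRAF3KO cells, against 12.98, 13.28 and 13.06 in Control cells. The second Control array exceeded every TRAF3KO array, and the difference was 0.10 ± 0.08 (adjusted p = 0.61). It was 0.037 without Control replicate 1 and 0.19 without Control replicate 2. Psmb5, with the chymotrypsin-like site, measured 8.56, 8.95 and 9.95 in TRAF3KO cells, against 8.63, 8.73 and 9.43 in Control cells. Replicate 3 was the highest array of both groups for Psmb5, and the difference of 0.22 ± 0.32 (95% interval -0.48 to 0.92) was smaller than the spread. Without TRAF3KO replicate 3 the difference of Psmb5 was -0.18.

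The promoter of Psmb6 is shown because it holds the core of an antioxidant response element, TGACNNNGC, the motif through which the factor encoded by Nfe2l1 is known to act on proteasome genes (RefSeq, GRCm38.p6, chr11:70525107-70525406, plus strand, core in capitals).
Psmb6: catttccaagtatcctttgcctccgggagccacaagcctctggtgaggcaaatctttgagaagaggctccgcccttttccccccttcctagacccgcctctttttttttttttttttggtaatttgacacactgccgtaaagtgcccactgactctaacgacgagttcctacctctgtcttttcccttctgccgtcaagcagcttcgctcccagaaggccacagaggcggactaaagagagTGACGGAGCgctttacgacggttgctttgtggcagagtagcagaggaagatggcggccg
This core, searched on both strands, was present in 4 of 23 promoters of constitutive subunits (17.4%: Psmb5, Psmb6, Psmc6 and Psmd12) and in 12.5% of all 27025 promoters. The 6 kept proteasome genes with the core had a median difference of 0.14 and the 31 without it a median of 0.12.

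None of the 5 immunoproteasome genes was called. Their differences were -0.02 for Psmb8, 0.10 for Psmb10, 0.16 for Psme1, 0.17 for Psmb9 and 0.26 for Psme2, with a median of 0.16. On the probes used, none had groups that did not overlap (0 of 5, against 11% of all kept genes for higher values). Psme1 had an unadjusted p of 0.047, and the other 4 genes had one above 0.05. The median was 0.10 without TRAF3KO replicate 1 and 0.10 without Control replicate 2.

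Psmb8, the inducible counterpart of Psmb5, measured 10.78, 10.48 and 10.37 in TRAF3KO cells, against 10.54, 10.62 and 10.54 in Control cells. The Control arrays lay within the range of the TRAF3KO arrays. The difference was -0.02 ± 0.11 (SE; limma adjusted p = 0.95), with a 95% interval of 0.827 to 1.17 on the fold scale. Psmb9, the counterpart of Psmb6, measured 12.001, 11.894 and 11.521 in TRAF3KO cells, against 11.409, 11.499 and 11.995 in Control cells. TRAF3KO replicate 3 lay with the lower Control arrays and Control replicate 3 with the higher TRAF3KO arrays. The difference of Psmb9 was 0.17 ± 0.16 (adjusted p = 0.65; fold interval 0.883 to 1.43). It ranged from 0.058 without Control replicate 1 to 0.35 without Control replicate 3. Psmb10, the counterpart of Psmb7, measured 12.44, 12.86 and 12.40 in TRAF3KO cells, against 12.52, 12.45 and 12.43 in Control cells. Only TRAF3KO replicate 2 stood above the Control arrays, and the difference of 0.10 ± 0.11 (adjusted p = 0.72) was -0.05 without it.

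Psme1 and Psme2 encode PA28 alpha and beta, which open the alpha ring gate. Psme1 measured 14.37, 14.17 and 14.22 in TRAF3KO cells, against 14.01, 14.18 and 14.07 in Control cells. The groups overlapped by 1 array on each side, and the difference was 0.16 ± 0.07 (limma adjusted p = 0.30). A second probe of Psme1 measured 13.21, 13.22 and 13.22 in TRAF3KO cells, against 12.90, 13.04 and 13.06 in Control cells. Its groups did not overlap, and it differed by 0.22 ± 0.07 (adjusted p = 0.11). Psme2 measured 10.74, 10.99 and 10.60 in TRAF3KO cells, against 10.23, 10.69 and 10.63 in Control cells. Control replicate 1 was the lowest, the other arrays were mixed, and the difference was 0.26 ± 0.14 (adjusted p = 0.40). Without Control replicate 1 it was 0.12, and without TRAF3KO replicate 2 it was 0.16. Psme3, which encodes the nuclear PA28 gamma, differed by 0.12 ± 0.07 and Psme4, which encodes the activator PA200, by 0.11 ± 0.08. Neither was called, and their groups overlapped.

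**Figure D3:**
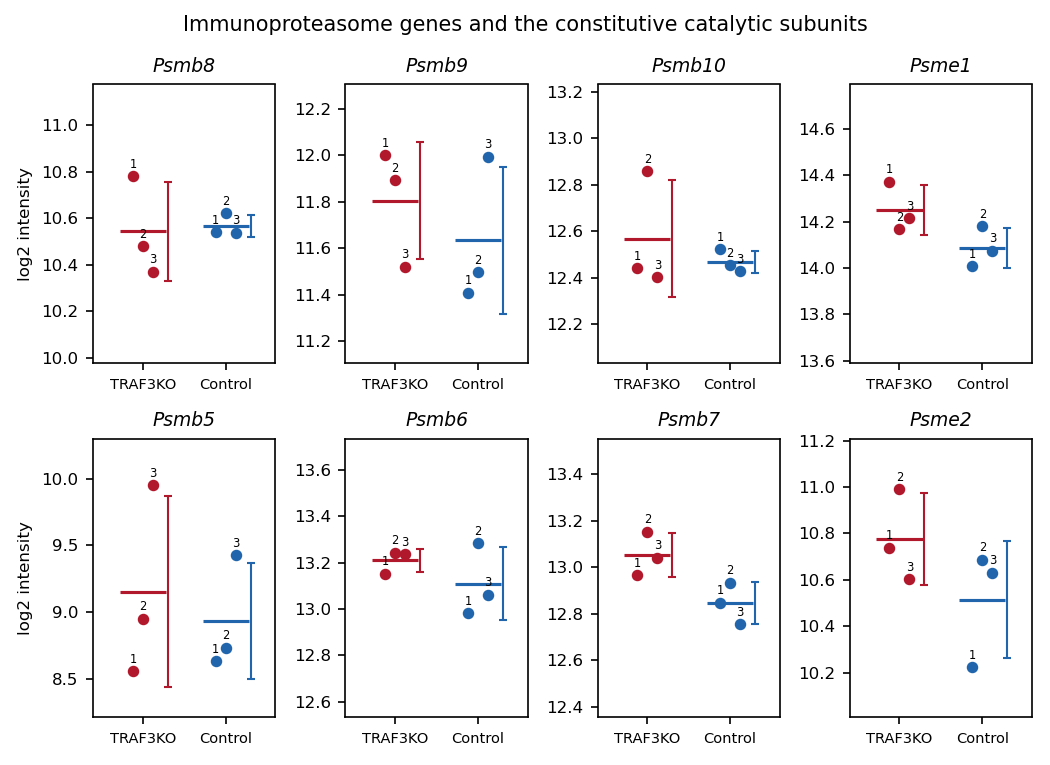
Log2 intensity (y axis, a separate scale for each gene) of the 5 immunoproteasome genes and of Psmb5, Psmb6 and Psmb7 on each array, with the replicate number above each point, the group mean as a line and 1 SD as a bar (n = 3). The groups overlap in each panel except that of Psmb7.

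The promoters of Psmb8, Psmb9 and Psme1 are shown because these genes are known targets of interferon signalling. Each is from RefSeq on GRCm38.p6: Psmb8 at chr17:34197945-34198244 (plus strand), Psmb9 at chr17:34187281-34187580 (minus strand) and Psme1 at chr14:55578244-55578543 (plus strand). Capitals mark the core of a gamma-activated site, TTCNNNGAA, in Psmb8, a CCAAT box read on the opposite strand in Psmb9, and the core of an interferon-stimulated response element, GAAA followed after any 2 bases by GAAA, read on the opposite strand in Psme1.
Psmb8: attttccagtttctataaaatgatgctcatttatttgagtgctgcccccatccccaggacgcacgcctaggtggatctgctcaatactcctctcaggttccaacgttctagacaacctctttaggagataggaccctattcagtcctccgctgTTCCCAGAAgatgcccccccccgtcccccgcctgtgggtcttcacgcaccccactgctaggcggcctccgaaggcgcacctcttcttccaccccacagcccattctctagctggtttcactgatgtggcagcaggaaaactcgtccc
Psmb9: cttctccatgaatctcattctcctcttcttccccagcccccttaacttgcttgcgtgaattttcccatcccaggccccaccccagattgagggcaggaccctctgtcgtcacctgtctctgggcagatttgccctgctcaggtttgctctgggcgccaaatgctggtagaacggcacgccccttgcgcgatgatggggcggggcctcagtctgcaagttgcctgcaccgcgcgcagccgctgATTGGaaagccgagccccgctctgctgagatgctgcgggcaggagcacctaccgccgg
Psme1: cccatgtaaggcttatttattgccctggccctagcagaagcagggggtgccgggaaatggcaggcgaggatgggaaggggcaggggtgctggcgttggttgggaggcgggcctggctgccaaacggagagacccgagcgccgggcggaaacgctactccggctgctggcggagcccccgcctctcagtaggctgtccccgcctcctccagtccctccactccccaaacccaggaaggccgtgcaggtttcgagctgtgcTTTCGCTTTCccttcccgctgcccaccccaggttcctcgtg
The interferon-stimulated response element core was present in 1 of the 5 immunoproteasome promoters (Psme1) and in 3.49% of all promoters. Among 37 proteasome promoters it was in 4 (10.8%: Psme1, Psmb3, Psmd4 and Psmd9). TTCNNNGAA was in 1 of the 5 (Psmb8), in 3 of the 37 (8.11%, also Psmd2 and Psmg1) and in 8.47% of all promoters. The NF-kB core, GGGA followed after any 4 bases by CC, was in 0 of the 5, in 9 of 37 proteasome promoters (24.3%) and in 20.5% of all. Psmb9 is divergently transcribed from Tap1, which encodes a subunit of the peptide transporter, and the Psmb9 and Tap1 windows share 275 bases. Tap1 differed by -0.09 ± 0.10 (SE; limma adjusted p = 0.73), against 0.17 ± 0.16 for Psmb9.

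Set against the constitutive subunits, the immunoproteasome genes showed no difference in response that exceeded the spread between arrays. The 28 constitutive subunits (alpha ring, constitutive beta ring and 19S) had a median difference of 0.09, so the 5 immunoproteasome genes stood 0.07 above them by medians. By the mean over genes they stood level with Psmd8 and Psmd6 included. These 2 genes had the highest differences. Leaving them out, with the lowest gene Psmd2 kept, raises the gap by construction. The immunoproteasome mean minus the constitutive mean, with each gene centred on its own mean, was 0.12, 0.02 and -0.14 in TRAF3KO cells, against -0.07, 0.01 and 0.06 in Control cells. The 2 group means of this quantity differed by -0.0012, or by 0.07 without Psmd8 and Psmd6 (0.16, 0.05 and -0.10 in TRAF3KO cells and -0.15, -0.02 and 0.06 in Control cells), and the groups overlapped both ways. Among the TRAF3KO samples the catalytic genes Psmb8, Psmb9 and Psmb10 had a mean of 0.14, 0.15 and -0.17 relative to their own averages, and in Control samples -0.11, -0.07 and 0.06. TRAF3KO replicate 3 was thus the lowest array and TRAF3KO replicates 1 and 2 were the highest.

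Each inducible catalytic gene was also set against the subunit it replaces, within each array. Only the change of this within-array log2 ratio between groups was read, since levels of different probes are not comparable. The change was -0.25 ± 0.59 for Psmb8 over Psmb5, 0.07 ± 0.27 for Psmb9 over Psmb6 and -0.11 ± 0.11 for Psmb10 over Psmb7 (TRAF3KO minus Control, SE, n = 3 each). A two-sided exact permutation test over the arrays gave p = 0.7, 0.9 and 0.4, and 0.9 for each after Benjamini-Hochberg adjustment over the 3 pairs. With 3 arrays against 3 this test cannot give a p below 0.1.

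**Figure D4:**
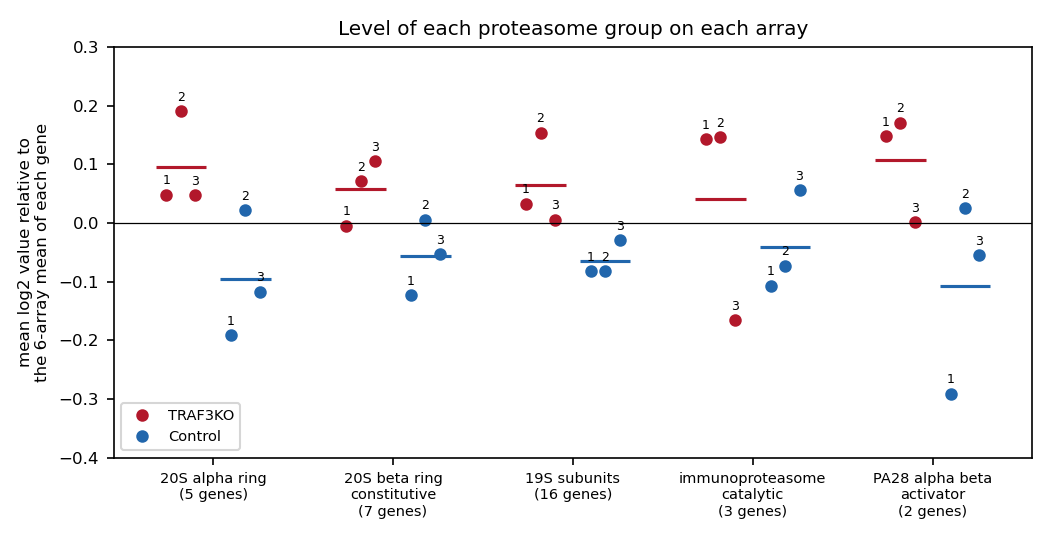
Mean log2 value of each group of genes on each array, relative to the mean of each gene over the 6 arrays (y axis), with replicate numbers above the points and group means as lines. The groups do not overlap for the alpha ring (TRAF3KO 0.05 to 0.19, Control -0.19 to 0.02) or the 19S subunits (whose medians per array do overlap), whereas they overlap for the constitutive beta ring, the immunoproteasome catalytic genes and PA28.

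The 19S regulatory particle was the most mixed part of the complex. Its 16 kept subunits had a median difference of 0.01 but a mean of 0.13, with Psmd8 and Psmd6 the highest and Psmd2 the lowest. Without Psmd8 and Psmd6, and with Psmd2 kept, the mean was -0.0064. Leaving out the 2 highest genes lowers a mean by construction. The means per array of all 16 did not overlap between groups, but their medians did (-0.02 to 0.04 in TRAF3KO cells and -0.07 to 0.04 in Control cells). The 6 ATPases, which form the unfolding ring, ranged from -0.16 (Psmc1) to 0.14 (Psmc2) with a median of -0.01, and the groups of Psmc2 alone did not overlap. Psmc1 measured 10.69, 11.12 and 11.22 in TRAF3KO cells, against 11.12, 11.23 and 11.14 in Control cells, with TRAF3KO replicate 1 apart. Its difference was 0.01 without that array.

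Psmd14, the deubiquitinase that cuts the ubiquitin chain from the substrate, came closest to a call. It measured 10.78, 11.09 and 10.75 in TRAF3KO cells, against 10.33, 10.54 and 10.41 in Control cells. All TRAF3KO arrays lay above all Control arrays, and the difference was 0.45 ± 0.11, or 1.36-fold (limma adjusted p = 0.051). Psmd14 had an adjusted p under the threshold in 5 alternatives, from 0.024 with robust variance moderation to 0.045 with array weights. It had none under it in the fits without 1 array (0.057 to 0.20), and over all alternatives the difference ranged from 0.34 to 0.51. Psmd8, a lid subunit, measured 10.50, 10.65 and 10.55 in TRAF3KO cells, against 8.54, 9.32 and 10.29 in Control cells. The TRAF3KO arrays agreed closely, with an SD of 0.08, and the Control arrays spread widely, with an SD of 0.87. The difference of Psmd8 was 1.18 ± 0.32 (adjusted p = 0.077), and without Control replicate 3 it was 1.63 (adjusted p = 0.0038). Without Control replicate 1 it was 0.76 (adjusted p = 0.18). The limma adjusted p of Psmd8 was 0.36 with robust variance moderation, 0.36 without a trend and 0.50 with no filter. It was 0.046 with an offset of 50 and 0.043 with the replicate number as a block.

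Psmd6, another lid subunit, measured 7.23, 7.09 and 6.97 in TRAF3KO cells, against 5.83, 6.53 and 6.04 in Control cells, without overlap, and the difference was 0.97 ± 0.29 (limma adjusted p = 0.11). A second, dimmer probe of Psmd6 differed by -0.09 ± 0.50, so its 2 probes gave different signs. Psmd2, the base scaffold that docks ubiquitin receptors and shuttling factors, measured 7.46, 7.94 and 7.52 in TRAF3KO cells, against 8.38, 8.0 and 8.07 in Control cells. It was the 1 proteasome gene whose TRAF3KO arrays all lay below the Control arrays, with a difference of -0.51 ± 0.20 (adjusted p = 0.23). A dimmer probe of Psmd2 differed by -0.52 ± 0.83, with overlap. Psmd1, the companion scaffold, differed by -0.04 ± 0.14, and the ubiquitin receptor Psmd4 by -0.06 ± 0.08. Of the lid subunits, Psmd12 differed by 0.17 ± 0.07 without overlap of the groups, and a second, dimmer probe by 1.10 ± 0.33 (adjusted p = 0.10), also without overlap. By contrast, Psmd7, Psmd13 and Psmd11 differed by 0.08 ± 0.10, 0.02 ± 0.08 and -0.10 ± 0.11.

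**Figure D5:**
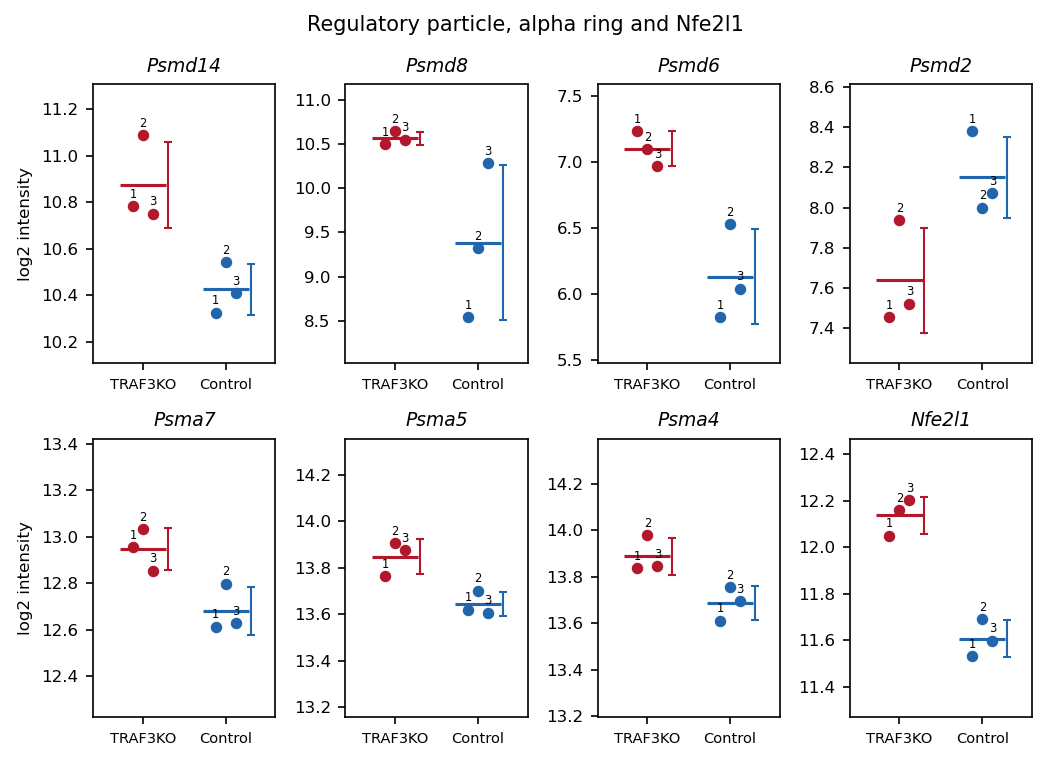
Log2 intensity (y axis, a separate scale for each gene) of the 19S genes Psmd14, Psmd8, Psmd6 and Psmd2, the alpha ring genes Psma7, Psma5 and Psma4, and Nfe2l1 on each array, with replicate numbers, group means as lines and 1 SD as bars (n = 3). The groups do not overlap in any of the 8 panels, and the Control arrays of Psmd8 spread from 8.54 to 10.29.

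The assembly chaperones gave a similar picture. The 3 kept chaperones of the 20S core, Psmg1, Psmg2 and Psmg3, which guide the formation of the alpha ring and the start of the beta ring, differed by 0.21 ± 0.10, 0.24 ± 0.09 and 0.09 ± 0.09, and Psmg1 and Psmg2 did not overlap between groups. A second probe of Psmg2 differed by 0.07 ± 0.10, with overlap. The chaperones of the 19S base differed by 0.15 ± 0.08 (Psmd10), -0.10 ± 0.13 (Psmd5) and 0.38 ± 0.29 (Psmd9), with overlap. A dimmer probe of Psmd9 differed by -0.31 ± 0.38. Psmc5 was the third gene whose kept probes differed in sign, at -0.09 ± 0.10 and 0.04 ± 0.12. Of the 16 proteasome genes with more than 1 kept probe, the other 13 had probes of 1 sign. Their probes did not always match in size or in overlap of the groups. The symbol rule also took in 2 genes that are not subunits. Psmc3ip, a meiotic recombination factor, differed by 0.25 ± 0.11 and Psme3ip1, which binds PA28 gamma, by -0.03 ± 0.09. Without them 32 of 41 genes (78%) had a difference above 0. Psmd3, Psmg4, Psmf1, Psma8 and Psmb11 were not analysed here.

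Among themselves the proteasome genes varied little within a group. The within-group SD was under 0.2 for 33 of the 43 genes, with a median of 0.12, against a median of 0.21 over all kept genes. The largest SDs belonged to Psmc6 (1.03), Psmd8 (0.62), Psmb5 (0.59) and Psmd9 (0.42). Psmc6 was also the dimmest of the 43 genes, at 5.05 in each group. The comparison with all kept genes was not matched for brightness, and the part of brightness in these SDs was not tested. Across the 43 genes TRAF3KO replicate 2 was the highest array 17 times and the lowest 0 times, and Control replicate 1 was the lowest 18 times and the highest 3 times. The other Control arrays were the highest 6 times (replicate 2) and 1 time (replicate 3).

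Of 16 kept partners of the proteasome and of ubiquitin supply, taken from 30 listed genes, 1 rose and 0 fell, against 2.3% and 2.14% of all kept genes, and the median difference was 0.09. A count of 1 in 16 is close to that share. The gene that rose was Nfe2l1, which encodes the transcription factor known to drive proteasome gene expression when proteasome activity is low. Nfe2l1 measured 12.05, 12.16 and 12.20 in TRAF3KO cells, against 11.53, 11.69 and 11.60 in Control cells. The groups were far apart relative to their SDs of 0.08, and the difference was 0.53 ± 0.08, or 1.44-fold (limma adjusted p = 0.0037). Over the alternatives its adjusted p ranged from 0.0012 to 0.11, and the call was lost with no filter on dim probes (0.059) and without a trend in the variance model (0.11). Vcp, the segregase that extracts ubiquitinated proteins, differed by 0.30 ± 0.09 (adjusted p = 0.090) and Pomp, the core maturation factor, by 0.13 ± 0.11. Nfe2l2, the related stress factor, differed by -0.05 (adjusted p = 0.89).

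Of 9 kept genes of MHC class I antigen processing, which uses peptides cut by the proteasome, 0 were called by limma (2.3% of all kept genes were called higher and 2.14% lower), 2 had a higher value at an unadjusted p under 0.05 (8.35% of all kept genes), and the median difference was 0.06. The highest was Nlrc5, the transactivator of class I genes, at 0.45 ± 0.15 (limma adjusted p = 0.14), and the lowest was Tap1. Of 15 kept interferon gamma response genes, 1 rose and 0 fell, against 2.3% and 2.14% of all kept genes, with a median of 0.02. At an unadjusted p under 0.05, 6 of the 15 (40%) were higher, against 8.35% of all kept genes, among them Ifi30 (0.68), Gbp7 (0.57) and Irf8 (0.24). Cd274, the checkpoint ligand PD-L1, averaged 11.34 ± 0.26 in TRAF3KO cells and 10.65 ± 0.32 in Control cells (SD, n = 3 each; limma adjusted p = 0.044). The call of Cd274 was lost in 9 of 17 alternatives, among them the fits without any 1 TRAF3KO array (0.060 to 0.15), without Control replicate 1 (0.18) and without Control replicate 2 (0.14), and its adjusted p ranged from 0.014 to 0.38. Irf1, which is known to induce immunoproteasome genes, differed by -0.02 ± 0.09 (adjusted p = 0.96). Of 13 kept genes of NF-kB factors and of partners whose turnover runs through the proteasome, 5 rose and 0 fell, against 2.3% and 2.14% of all kept genes, with a median of 0.30. They were Nfkb2, whose product p100 the proteasome processes, Birc3, Nfkbie, Nfkbia and Relb, and Nfkb2 differed most (9.64 ± 0.11 in TRAF3KO cells and 7.90 ± 0.37 in Control cells; limma adjusted p = 4.9e-04). The call of Birc3 was lost in 8 of 17 alternatives, among them the fits without any 1 TRAF3KO array (0.059 to 0.096), without Control replicate 1 (0.089), without Control replicate 2 (0.068) and with inferred sex as a block (0.058, with the difference still 0.83). The calls of Nfkb2, Nfkbie and Relb were lost with no filter on dim probes (0.062, 0.062 and 0.082) and without a trend (0.058, 0.083 and 0.12), and that of Nfkbia without a trend (0.078). This list was chosen with earlier results for these genes known, so its count is no independent evidence of its direction. Btrc, the ubiquitin ligase subunit that recognises IkB, differed by -0.47 ± 0.14 (adjusted p = 0.094).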

How the data were processed

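Labelled cRNA from 6 mouse splenic B cell samples was hybridised to Illumina bead arrays. The authors deposited log2 intensities of 25697 probes, 1 column per array. The submitters' processing notes list BeadStudio 3.2.3 but not what it did, and no source used here states the background correction, the normalization or the floor. Medians and maxima of the deposited log2 values are nearly the same on every array, so a shift shared by all genes cannot be seen.

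Probes were named through the platform annotation, which gave 1 symbol for 23141 probes and none for 2556. The filter, values over the 40th percentile on 3 or more arrays, kept 15657 probes. These were fitted by limma 3.58.1 (R 4.3.3; lmFit and eBayes, trend = TRUE) on group alone, and p-values were adjusted over all kept probes by Benjamini-Hochberg. A gene was its brightest kept probe and was called at an adjusted p under 0.05. The procedure was tested on simulated data.

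The proteasome genes and the lists were chosen with earlier results of these data known. Genes named with values were the 5 immunoproteasome genes, Psmb5, Psmb6 and Psmb7, called members, the 4 highest and 4 lowest differences among the others, members whose probes differed in sign, and, of each pathway list, called genes or else the highest and lowest. Other members and partners were named after their values were seen. Promoters came from RefSeq and were held for 39 of the 45 genes, and those of chromosome 18 were not used here. Alternatives were other normalizations, filters, an offset of 50, variance models, array weights, the mean of probes, the replicate number or the sex inferred from Xist and Eif2s3y as a block, and leaving out each array. Arrays have no sequencing depth, and their number limits the precision.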

Additional observations from a re-analysis of the deposited data

How the results depend on the processing

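No proteasome gene was called higher in 12 of 18 alternatives and none lower in 17 of 17. Some of these could hardly change the count. Median centring gave the same values as the main fit, and quantile normalization nearly the same. The alternative without Psmc3ip and Psme3ip1 only took genes out of a count of 0. The count called higher was 1 with a filter at the 60th percentile, with robust variance moderation and with array weights (Psmd14 each time), and 2 with an offset of 50 and with the replicate number as a block (Psmd14 and Psmd8). It was 0 to 1 when 1 array was left out (Psmd8 without Control replicate 3). The count of all genes called, 457, was 114 with no filter, 65 without a trend, and 227 to 382 when 1 array was left out. Whether the replicate numbers pair the arrays was not settled. The r of same-numbered deviations was small, at 0.030 to 0.044, but each number's own r was higher than those with other numbers (at most 0.013). The block changed no other call among the genes followed in the alternatives. Other genes named above, such as Cd2, Sdc1, Fkbp11, Vcp and Btrc, were not followed there.

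The count of proteasome genes above 0 ranged from 29 to 35. The median difference ranged from 0.07 to 0.13 for constitutive subunits, 0.10 to 0.18 for immunoproteasome genes and 0.15 to 0.23 for the alpha ring, the last added after the values were seen. The gap between immunoproteasome and constitutive medians ranged from -0.04, against Psmb5, Psmb6 and Psmb7 alone, to 0.09. When 1 array was left out it ranged from -0.03 to 0.09.

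Psmb8 was 0.023 with inferred sex as a block. When 1 array was left out, the difference ranged from -0.141 to 0.0643 for Psmb8, -0.0464 to 0.181 for Psmb10, -0.177 to 0.520 for Psmb5, -0.261 to 0.0057 for Psmc1 and -0.185 to 0.0307 for Psmc5. The change of the ratio ranged from -0.661 to 0.242 for Psmb8 over Psmb5 and from -0.0848 to 0.275 for Psmb9 over Psmb6. Low signal limits Psmc6, Psma1 and Psma6.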
